A study of Homo sapiens with 40 samples.

Results

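The genes described here are the olfactory receptor genes of human chromosome 11, chosen as the protein-coding genes of that chromosome whose symbol is OR followed by digits, letters and digits. There were 171 such genes among 19974 protein-coding genes, and 168 could be placed. The other 3, OR8U8, OR8U9 and OR9G9, are listed with coordinates of an alternate scaffold and were not scored. Of the 168 members, 55 are class I receptors (families 51, 52, 55 and 56) and 113 are class II receptors. The measurement was CUT&Tag for H3K27me3, the trimethyl mark that Polycomb repressive complex 2 puts on histone H3, read here as the percent of each gene that lies inside the peaks called in a library. All libraries came from KMS-11, a multiple myeloma cell line with the t(4;14) translocation that drives high NSD2 expression.

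There were 15 groups of 2 libraries each. In the knockout arm, wild-type parental KMS-11 cells (called KO parental) were set against 2 NSD2 knockout clones, KO clone 3 and KO clone 12. In the degradation arm, NSD2-dTAG knock-in clones 8 and 11, whose NSD2 carries a degradation tag, were untreated (day 0) or treated with the degrader dTAGV-1 at 100 nM for 7, 14 or 21 days. Their untagged wild-type parental line (dTAG parental) was untreated or treated with dTAGV-1 for the same times, at a dose the labels do not state. By these labels 14 libraries came from cells with NSD2 and 16 from cells without it; peak lists of a histone mark cannot show the protein itself. Each clone is a line of its own, so the libraries of a clone do not measure the spread between clones.

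Olfactory receptors are G protein-coupled receptors that detect odorants. Each olfactory sensory neuron expresses a single receptor allele, and the genes are silent in most other tissues. Class I genes descend from receptors shared with fish and class II genes from the larger tetrapod family, and most coding regions lie in a single exon. In olfactory neurons the silent receptor genes are packed in constitutive heterochromatin marked by H3K9me3, a different system from Polycomb. NSD2 places dimethylation on lysine 36 of histone H3, a mark that hinders Polycomb repressive complex 2 on the same histone tail, and the comparisons ask where H3K27me3 goes once NSD2 is lost.

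The DNA upstream of these genes is poor in CpG dinucleotides, the sequence feature of the islands where Polycomb usually sits, and 4 upstream windows are printed to show it. Each runs from 250 bases before to 50 bases after the annotated gene start (RefSeq, GRCh38.p14), 5′ to 3′ on the gene's strand, with every CpG in capitals. OR4C16 is the receptor gene with the most H3K27me3 in cells that have NSD2, as a percent of its length. On that measure OR52M1 and OR4D6 had the largest gains in the knockout clones among class I and class II members. OR5B21 was among the gains at day 21. These 4 were picked after their values were seen.
OR4C16 (chr11:55571878-55572177, plus strand): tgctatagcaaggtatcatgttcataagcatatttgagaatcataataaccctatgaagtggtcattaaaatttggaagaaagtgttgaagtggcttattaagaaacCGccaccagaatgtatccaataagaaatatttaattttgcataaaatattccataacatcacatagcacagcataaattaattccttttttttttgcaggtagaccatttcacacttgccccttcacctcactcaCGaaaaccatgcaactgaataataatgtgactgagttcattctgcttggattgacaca
OR52M1 (chr11:4544941-4545240, plus strand): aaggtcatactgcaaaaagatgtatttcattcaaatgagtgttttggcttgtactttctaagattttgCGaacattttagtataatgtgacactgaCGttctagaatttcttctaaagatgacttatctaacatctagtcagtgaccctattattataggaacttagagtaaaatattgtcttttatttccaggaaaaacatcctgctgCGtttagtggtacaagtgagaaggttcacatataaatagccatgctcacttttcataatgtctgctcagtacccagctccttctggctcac
OR4D6 (chr11:59456711-59457010, plus strand): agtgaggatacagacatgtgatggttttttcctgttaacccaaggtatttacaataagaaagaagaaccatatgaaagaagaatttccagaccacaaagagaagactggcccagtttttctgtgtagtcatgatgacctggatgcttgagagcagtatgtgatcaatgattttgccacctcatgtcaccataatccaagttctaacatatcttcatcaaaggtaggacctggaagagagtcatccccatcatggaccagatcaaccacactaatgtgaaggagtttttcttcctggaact
OR5B21 (chr11:58508056-58508355, minus strand): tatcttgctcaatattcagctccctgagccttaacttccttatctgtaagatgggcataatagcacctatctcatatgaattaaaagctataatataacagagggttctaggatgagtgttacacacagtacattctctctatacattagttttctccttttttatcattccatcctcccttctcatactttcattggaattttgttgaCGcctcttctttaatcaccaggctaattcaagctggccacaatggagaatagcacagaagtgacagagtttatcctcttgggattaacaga

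The OR4D6 window holds no CpG, OR5B21 holds 1, OR4C16 holds 2 and OR52M1 holds 3. Windows were found for 135 of the 168 members. Their median was 1 CpG, with a highest count of 14, against a median of 22 over the windows of 15813 protein-coding genes. No CpG at all was present in 36 members (26.7%), against 1.9% of protein-coding genes, and 15 or more were present in no member, against 65.5% of protein-coding genes. Median GC content was 37% in the members and 62.7% in protein-coding genes. The letters TAATTA, the core that homeodomain proteins such as LHX2 recognise, were found in 24.4% of member windows and 3.35% of protein-coding windows. CCCNNGGG, a core that EBF proteins recognise, was found in 8.15% and 21.7%. Both motifs read the same on either strand and cannot overlap each other. The fixed letters of TAATTA are all A or T and those of CCCNNGGG all C or G, so both shares vary with GC content. Whether either motif differs beyond GC content was not tested. In 64 of the 135 members the annotated start was an ATG, so the last 50 bases of their window lie in the coding region and the window need not be the promoter. In the H3K27me3 lists the window itself was inside a peak in at least 1 library for 23 members, and for 1 member, OR52W1, in a library with NSD2.

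In cells with NSD2 the receptor genes were almost bare of H3K27me3 peaks, and in cells without NSD2 a minority of them carried short, weak ones. The 2 KO parental libraries had 3 and 2 members with at least 1 base inside a peak, against 43 and 31 in KO clone 3 and 39 and 25 in KO clone 12. The means were 2.5 ± 0.71 (SD, n = 2) and 34.5 ± 8.06 (SD, n = 4), a ratio of 13.8, and the groups did not overlap. In the untreated dTAG clones the counts were 3 and 2 in clone 8 and 3 and 3 in clone 11. At day 7 they were 18 and 22 in clone 8 and 23 and 28 in clone 11, at day 14 they were 26 and 17 and then 37 and 23, and at day 21 they were 32 and 18 and then 29 and 21. The means at days 7, 14 and 21 were 22.8 ± 4.11, 25.8 ± 8.38 and 25.0 ± 6.58 (SD, n = 4 each), so most of the difference from day 0 (2.75 ± 0.5, SD, n = 4) was there by day 7 and the later days overlapped each other. In the untagged parental line the 2 libraries of each time had 3 and 1 members with a peak (day 0), 6 and 3 (day 7), 4 and 2 (day 14) and 6 and 2 (day 21). All 14 libraries with NSD2 thus lay between 1 and 6, and all 16 without it between 17 and 43. As shares of the members these are 0.595% to 3.57% and 10.1% to 25.6%. Receptor genes on other chromosomes did not overlap either, at 8.68% to 21.5% with NSD2 and 22.4% to 42.9% without it. All protein-coding genes overlapped over the 30 libraries, at 59.2% to 82.4% and 75.6% to 87.6%. Their shares did not overlap between KO parental and the KO clones, nor between untreated and treated dTAG clones.

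**Figure D1:**
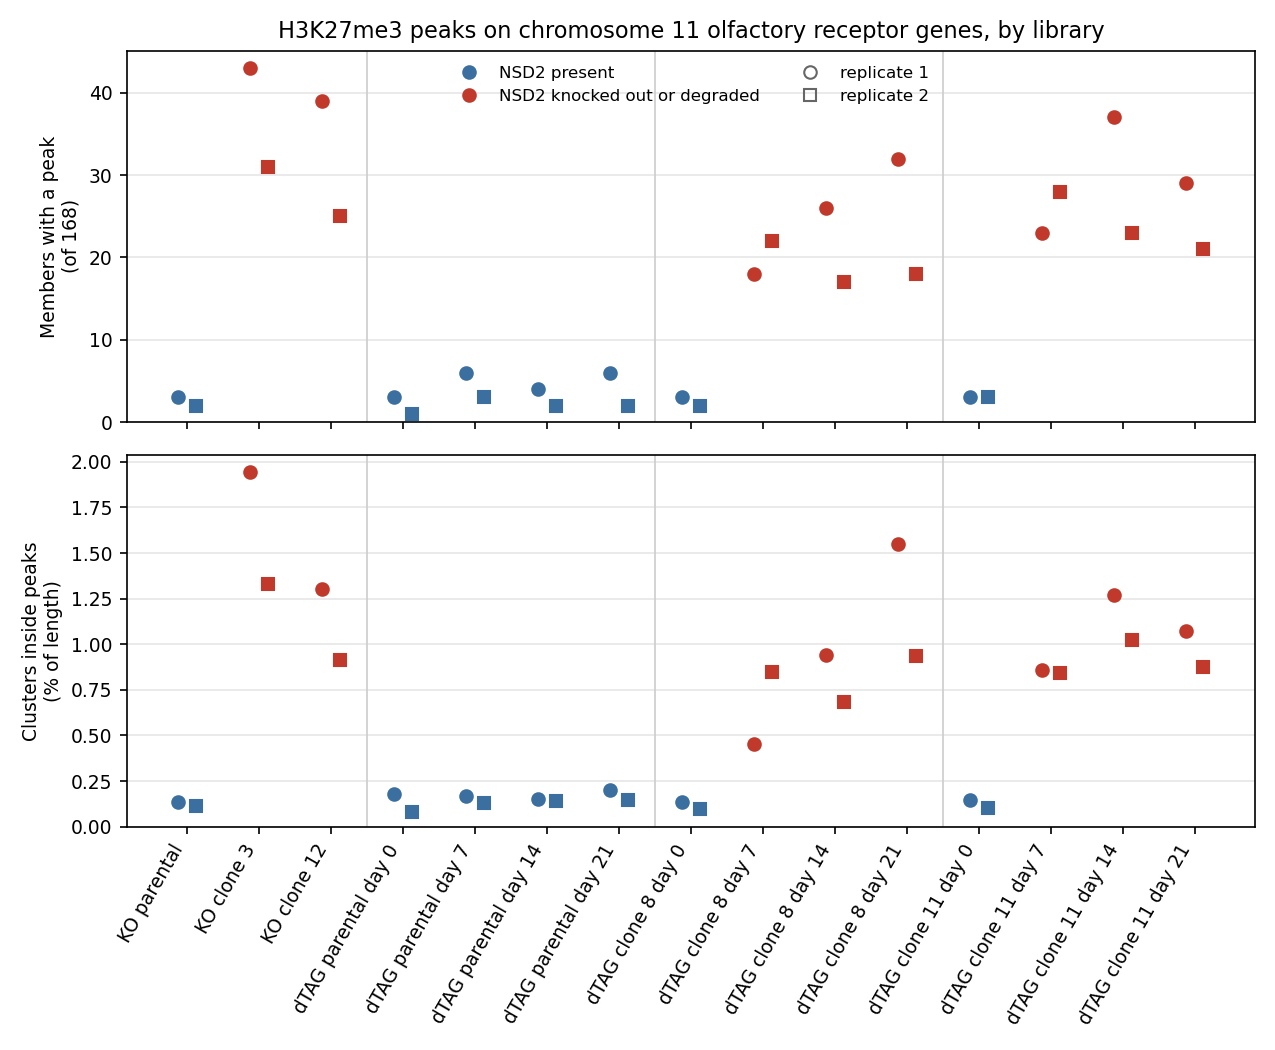
Number of the 168 chromosome 11 olfactory receptor genes with at least 1 base inside an H3K27me3 peak (top) and percent of the length of their 11 clusters inside peaks (bottom), 1 point per library, in 15 groups of 2 libraries. Libraries with NSD2 (blue) held 1 to 6 such genes, and libraries of knockout or treated dTAG clones (red) held 17 to 43.

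Over all 30 libraries, 94 members were never inside a peak and 74 were at least once. Of these 74, 65 were seen in libraries without NSD2 alone, 8 in both kinds and 1, OR8D4, in libraries with NSD2 alone, where it was seen in the first replicate of the dTAG parental line at each of the 4 times. The cover was thin: at least 50% of the gene was inside a peak for 0 or 1 members in libraries with NSD2 and for 1 to 6 in libraries without. In the knockout arm 31 members were inside a peak in both clones, and at day 21 29 were so in both dTAG clones. On both lists were 23 members, which is 74.2% of the first and 79.3% of the second. The matching shares over all genes were not counted. A single base counts, so longer genes have more room for a peak. Of the 94 members of 1 kb or more, 50 were inside a peak in some library, against 24 of the 74 shorter ones. Whether length accounts for the shared members was not tested.

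How deeply a library was sequenced changes how many peaks are called, and depth is not recorded in the lists, so the background pileup (fragments expected by chance at a base) was estimated from each list's own folds and p-values. It ran from 0.922 to 3.26, and in each list it rests on the 26 to 142 short peaks that shared a value. Among the libraries with a pileup above 2, the 5 with NSD2 (2.22 to 3.26) had 3 to 6 members with a peak. The 3 libraries without NSD2 and with a pileup below 2 (1.61 to 1.81) had 17 to 21. The limit of 2 was chosen after the values were seen. Replicate 1 had more members with a peak than replicate 2 in 12 of the 15 groups and fewer in 2, and it had the higher pileup in 12 of 15.

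**Figure D2:**
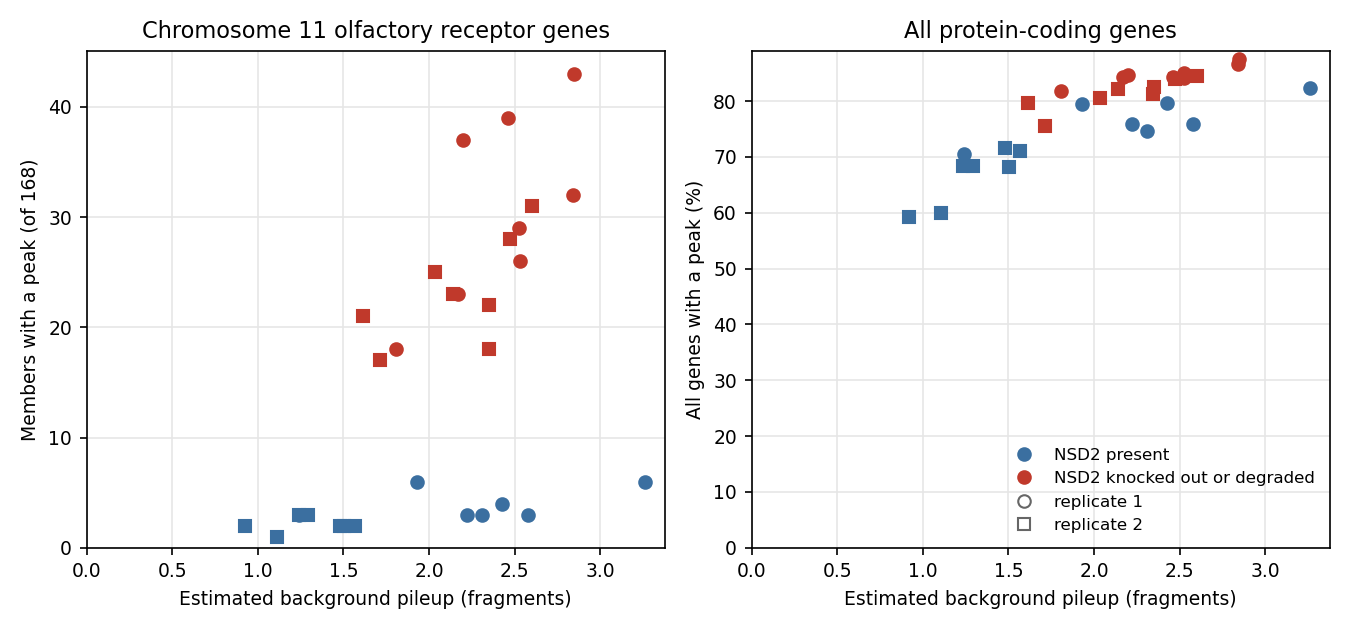
Members with a peak (left, of 168) and percent of all protein-coding genes with a peak (right) against the estimated background pileup of each of the 30 libraries. In the left panel libraries without NSD2 (red) hold 17 to 43 members and those with NSD2 (blue) 1 to 6 at overlapping pileups; in the right panel both rise together with pileup.

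The cluster peaks of cells without NSD2 were weak in fold and q beside the few that cells with NSD2 had there. Inside the 11 clusters, KO parental libraries had 14 and 10 peaks and KO clone libraries 88 to 191. The authors' median fold enrichment of the cluster peaks was 4.30 ± 0.47 (SD, n = 2) in KO parental and 2.90 ± 0.1 (SD, n = 4) in the KO clones, and their median −log10 q was 5.69 ± 3.51 and 1.89 ± 0.17. The median fold of whole lists was 2.76 ± 0.11 and 2.73 ± 0.07, so the cluster peaks of the KO clones did not lie below their lists in fold. At day 21 the dTAG clones had 110 ± 30.1 cluster peaks, against 12.3 ± 2.22 at day 0 (SD, n = 4 each), with a median −log10 q of 1.92 ± 0.23, and their whole lists had a median of 2.16 ± 0.23. When each list was shortened to its strongest peaks, down to the called length of the shortest list, 1 to 5 members kept a peak in libraries with NSD2 and 4 to 10 in libraries without. With only the peaks of −log10 q 5 or more the counts were 0 to 5 and 1 to 5, and with those of fold 4 or more both kinds of library had 1 to 5, so the groups overlapped there.

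By length, the clusters span 5862 kb in all, and peaks covered 0.123% ± 0.016 (SD, n = 2) of them in KO parental and 1.37% ± 0.43 (SD, n = 4) in the KO clones, a ratio of 11.2. For the whole genome the covered percent was 2.22% and 4.30%, a ratio of 1.94. In the dTAG clones the clusters were covered at 0.120% ± 0.024 at day 0, 0.750% ± 0.2 at day 7, 0.978% ± 0.24 at day 14 and 1.11% ± 0.31 at day 21 (SD, n = 4 each). The day 21 ratio was 9.20, against 2.37 for the genome, which went from 1.67% at day 0 to 3.97% at day 21. In the dTAG parental line the day 21 ratio was 1.33 for the clusters and 1.35 for the genome. In the KO clones the clusters' 1.37% lay below the genome's 4.30%. The large cluster ratios start from a base near 0.12%. In percentage points the clusters rose less than the genome, both in the KO clones and at day 21.

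For single genes, covered percent was fitted with limma over all 30 libraries and all protein-coding genes with a mean cover between 1% and 99%. Only 46 of the 168 members (27.4%) passed that filter, against 71.6% of all genes. A member that is at 0 with NSD2 passed through its cover without it, so the count of calls describes those 46 and not the family. A gain or loss means an adjusted p under 0.05 over all 14197 genes tested. Groups at 0 in both libraries add no spread to the fit, so these p-values may be too small, and they rest on the spread between libraries of a group. The median change over all 168 members was 0 percentage points in every comparison. Over all genes it was 0.56 in the knockout comparison and 0.73 at day 21. A median of 0 follows from the members without any change, 63.1% in the knockout comparison and 75% at day 21. The mean change of the members was 3.75 points in the knockout comparison, against 1.96 over all genes. At day 21 it was 2.30, against 2.99.

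In the KO clones against KO parental, 11 members gained cover and 1 lost it. Over all genes tested, 17.7% gained and 0.718% lost, and the gains made up 23.9% of the 46 tested members. All 11 were at 0 in both KO parental libraries, and for 6 of them the groups did not overlap. These members passed the filter through libraries without NSD2, so both counts are partly built in. The matching shares over all genes were not counted. The gains were in 7 class I members and 4 class II members.

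OR4D6 (chr11:59456961-59457905), a class II gene, was at 0 in both KO parental libraries and at 66.0% and 98.2% in clone 3 and 74.1% and 70.8% in clone 12. All 4 clone libraries were high, and the change was 77.3 ± 19.9 percentage points (SE, adjusted p = 0.0104). OR52M1 (chr11:4545191-4546144), a class I gene, went from 0 and 0 to 45.8% and 74.6% in clone 3 and 62.7% and 65.9% in clone 12. Its change was 62.3 ± 16.5 points (adjusted p = 0.0128), again with no overlap.

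OR51Q1 (chr11:5422111-5423206) was at 30.9% and 74.4% in clone 3 and 20.5% and 27.1% in clone 12, a change of 38.2 ± 6.57 points from 0 (adjusted p = 0.000597). OR51B4 (chr11:5301014-5301946), next to the beta-globin genes, had 53.5% and 54.0% in clone 3 but 0 and 29.0% in clone 12, so 1 clone library overlapped the parental ones; the change was 34.1 ± 6.78 points (adjusted p = 0.00175). OR51V1, on the other side of the globin genes, had 31.8% and 0 in clone 3 and 39.8% and 31.8% in clone 12 (25.8 ± 7.07 points, adjusted p = 0.0154).

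OR8A1, the last member of the last cluster, gained in clone 3 libraries (47.7% and 21.8%) and was at 0 in both clone 12 libraries. Other gains were smaller in percent, a measure that depends on gene length, and members run from 912 to 165335 bp. OR4D10 was at 29.9% and 13.8% in clone 3 and 5.87% and 4.28% in clone 12 (13.5 ± 4.18 points, adjusted p = 0.0311). OR5A2 was at 25.7% and 10.4% in clone 3 and at 0 in both clone 12 libraries, so its groups overlapped (9.01 ± 2.75 points, adjusted p = 0.0284). OR52N2 was inside a peak in all 4 clone libraries, from 1.01% to 9.84% (6.05 ± 1.46 points, adjusted p = 0.00698). OR51E1 (chr11:4643982-4655488), a class I gene also known as a prostate-enriched receptor, was at 11.4% and 11.4% in clone 3 and 3.53% and 3.29% in clone 12, a gain of 7.42 ± 1.31 points (adjusted p = 0.000745). The 11th gain, OR51E2, a neighbouring receptor known from prostate tissue, falls outside the rule for named genes and was looked at after its value was seen; it gained 4.40 ± 1.03 points (adjusted p = 0.00571).

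Clone 3 alone against KO parental gave 16 gains and 1 loss (background 21.6% and 0.655%), and clone 12 alone gave 1 and 1 (background 4.43% and 0.197%); the difference between the clones was not tested here. Without KO parental replicate 1 the 11 gains became 4, and without KO parental replicate 2 they became 3. Over all genes tested the 2515 gains became 1492 and 1062. Of the 10 gains the rule names, those of OR51Q1, OR51B4 and OR51E1 passed whichever of the 6 libraries was left out (highest adjusted p 0.0141, 0.0283 and 0.0165), and the other 7 missed the threshold without either KO parental library. With lists shortened to equal length, with −log10 q of at least 5 or with fold of at least 4, no member gained. Gains were few over all genes as well: 247 of 10595 tested, 0 of 8389 and 2 of 4786.

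At day 21 against day 0 in the dTAG clones, 8 members gained and 1 lost. Over all genes 26% gained and 0.472% lost, and the gains, 17.4% of the 46 tested members, were no more frequent than among all genes tested. In 7 of the 8 the day 0 libraries were all at 0, and in 4 the groups did not overlap. Here too the filter partly builds in both counts, and the shares over all genes were not counted. OR4D11 (chr11:59503576-59504511) was at 60.1% and 0 in clone 8 and 67.3% and 28.5% in clone 11, against 0 in the 4 day 0 libraries, a change of 39.0 ± 11.9 points (SE, adjusted p = 0.0209). OR5B21 (chr11:58506807-58508105) was at 32.7% and 63.6% in clone 8 and 40.9% and 0 in clone 11 (34.3 ± 10.9 points, adjusted p = 0.027). For each of them 1 treated library sat at 0 with the untreated ones.

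Gains smaller in percent were seen in all 4 treated libraries of OR5A1 (7.96 ± 2.07 points, adjusted p = 0.00813), OR4D9 (7.02 ± 2.37, adjusted p = 0.0365) and OR5AN1 (6.77 ± 1.78, adjusted p = 0.0087). OR5AN1, a receptor known to respond to musk odorants, was at 3.28% and 14.2% in clone 8 and 4.43% and 5.16% in clone 11. OR51M1 gained 6.72 ± 1.94 points (adjusted p = 0.0153), with 1 treated library at 0. OR52K1 is the gained member that was already covered at day 0, at 3.24% and 3.13% in clone 8 and 2.96% and 1.03% in clone 11. At day 21 it was at 11.8% and 11.7% in clone 8 and 8.21% and 3.23% in clone 11, so the lowest treated library overlapped the untreated ones (6.14 ± 1.83 points, adjusted p = 0.0187).

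OR51E1 was the 1 member called as a gain both in the knockout clones and at day 21. It was at 0 in all 14 libraries with NSD2 and inside a peak in 15 of the 16 without, with a median of 4.92% and a highest value of 11.4%. Its gain was 6.80 ± 1.07 points at day 7 (adjusted p = 0.000589), 4.76 ± 1.07 at day 14 (adjusted p = 0.00363) and 5.08 ± 1.07 at day 21 (adjusted p = 0.00193). These 3 comparisons share the day 0 libraries.

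**Figure D3:**
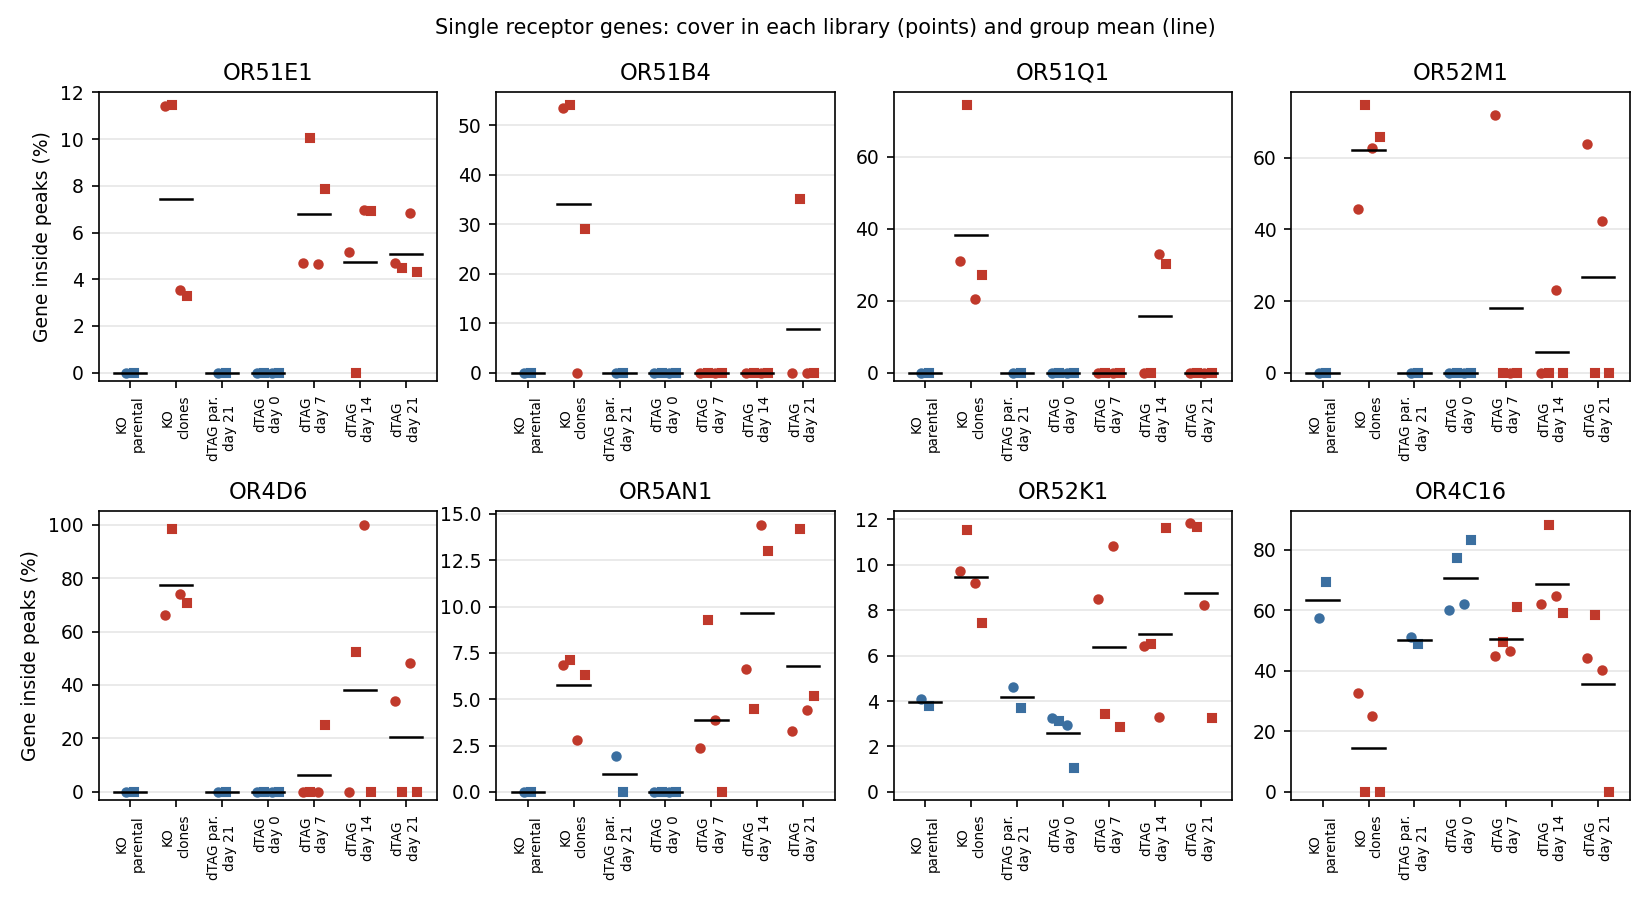
Percent of 8 single receptor genes inside H3K27me3 peaks in each library of 7 groups (circles, replicate 1; squares, replicate 2; blue, NSD2 present; red, knocked out or degraded; black line, group mean), each panel on its own axis from 0. OR51E1 is at 0 in every library shown with NSD2 and between 3.29% and 11.4% in the KO clones, while OR4C16 is covered in all libraries with NSD2 and lower in the KO clones.

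At day 7, 5 members gained and 0 lost (background 20.8% and 0.225%): OR52W1, OR51E1, OR2D3, OR10A4 and OR2AT4, of which OR10A4 falls outside the rule for named genes. At day 14, 10 gained and 0 lost (background 21.7% and 0.62%). By clone at day 21, clone 8 gave 5 gains and 0 losses (background 16.6% and 0.225%) and clone 11 gave 2 and 1 (background 8.2% and 0.0916%). The day 21 gains were 4 when the second untreated library of clone 8, the second untreated library of clone 11 or the first day 21 library of clone 8 was left out, and 5 without the first untreated library of clone 11. They were 14 without the second day 21 library of clone 8 and 13 without that of clone 11. Over all genes the 3692 day 21 gains became 2533 to 3960 as each library was left out. The day 7 gains were 2 without any single one of the 4 untreated libraries, where the 2949 over all genes became 1671 to 2876. Of the 8 gains at day 21, those of OR51E1 and OR5AN1 passed whichever library was left out (highest adjusted p 0.0147 and 0.0366), and the other 6 each missed the threshold at least once. The day 21 gains were 3 with the estimated pileup as a covariate, and 0 with lists shortened to equal length. Over all genes these settings gave 2235 gains of 14197 tested and 528 of 10595.

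In the untagged dTAG parental line limma called no member at day 7, 14 or 21 (background gained 0%, 0% and 0.0141%, lost 0% each). There 0 members reached an unadjusted p under 0.05, where 295, 352 and 548 of 14197 genes did at days 7, 14 and 21. In that line 162 of the 168 members had no change at all at day 21. No other tool was run. The day 21 change of the tagged clones minus that of the parental line was tested as a contrast of its own. It passed for 0 members (background 1.85% gained and 0.0775% lost). An unadjusted p under 0.05 was reached by 3 of the 46 tested members and by 2308 of 14197 genes. For single genes, then, the gain at day 21 was not shown to differ from the change in the untagged line.

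OR4C16 (chr11:55572128-55573060), a class II gene in the otherwise nearly bare cluster of 46 members, went the other way. In the 14 libraries with NSD2 its cover ran from 46.1% to 83.2% with a median of 59.3%, and the next member by mean cover in those libraries, OR52W1, averaged 4.87%. In KO parental it was at 57.4% and 69.5%, and in the KO clones at 32.7% and 0 in clone 3 and 25.1% and 0 in clone 12. The groups did not overlap, and the change was −49.0 ± 11.6 points (SE, adjusted p = 0.00621). In the dTAG clones at day 0 it was at 60.2% and 77.2% in clone 8 and 62.0% and 83.2% in clone 11, and at day 21 at 44.3% and 58.5% and then 40.4% and 0 (−34.8 ± 9.51 points, adjusted p = 0.011). At day 14 the change was −2.04 ± 9.51 points (adjusted p = 0.94). Where the peak was present in the dTAG clones, its median fold was 5.81, 7.55, 5.35 and 6.16 at days 0, 7, 14 and 21. Its median width, with an absent peak as 0, was 650, 448, 591.5 and 395 bp. The absent peak counts in the width alone, so these 2 medians are not alike. By library, the fold at day 0 was 7.10 and 4.38 in clone 8 and 7.14 and 4.53 in clone 11. At day 21 it was 7.32 and 3.73 in clone 8 and 6.16 in clone 11 replicate 1. Fold thus overlapped between day 0 and day 21. The width where present was 377 to 546 bp at day 21, against 562 to 985 bp at day 0. In the KO clones the median fold of the 2 peaks present was 4.41, against 5.86 in KO parental. The knockout loss was not called without KO parental replicate 2 (highest adjusted p over the libraries left out, 0.0986). The day 21 loss was not called without clone 8 day 0 replicate 2, clone 8 day 21 replicate 1, clone 11 day 0 replicate 2 or clone 11 day 21 replicate 2 (highest 0.0613), and neither was called at −log10 q of at least 5.

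With NSD2 the OR4C16 peak had a median fold of 6.61, where the median fold of the cluster peaks averaged 4.43, and a median width of 562.5 bp, where theirs averaged 534 bp. It was present in 27 of 30 libraries, and all of these shared the stretch chr11:55572631-55572864 inside the gene, downstream of the window printed above, which no peak reached. With NSD2 its summed width was 451 to 985 bp, its fold 4.25 to 10.1 and its −log10 q 4.06 to 69.5. Of the libraries without NSD2, 13 of 16 had it; the libraries that lacked it were the second replicates of KO clone 3, KO clone 12 and clone 11 at day 21. No genome was used here, so the sequence under the peak is not shown. Reads of near-identical receptor genes can be shared between copies, and how such reads were filtered is not given in the sources used here.

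Along the chromosome the members fall into 11 clusters, taken as runs with gaps of at most 500 kb. KO clone libraries had peaks in 9 of them, and bins that gained in the KO clones lay in 5. Cluster 1 (chr11:4367263-6200186) holds all 55 class I members. Peaks covered 0.129% of its length in KO parental, 2.42% in the KO clones, 0.112% in the dTAG clones at day 0 and 1.85% at day 21. Between 5 and 22 of its members had a peak in libraries without NSD2, against 0 to 3 with NSD2. Cluster 2 (chr11:6765626-6921994, 8 members) was at 0.0943% in KO parental and 2.63% in the KO clones.

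Cluster 9 (chr11:59358895-59713845, 8 members) was the most covered multi-gene cluster, at 1.09% in KO parental and 5.12% in the KO clones, and at 1.14% at day 0 and 4.94% at day 21. All 8 of its members were inside a peak in at least 1 library. Cluster 10 is OR2AT4 alone, a receptor also reported in skin; it was at 0 in KO parental and at 14.7%, 9.13%, 3.12% and 1.99% in the KO clone libraries. Its gain of 7.23 ± 3.00 points did not pass (adjusted p = 0.114), while at day 7 it gained 10.4 ± 2.45 points (adjusted p = 0.00621).

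Clusters 4, 5, 6 and 7, which lie on either side of the centromere, stayed nearly empty, with means of 0.291%, 0%, 0% and 0.179% in the KO clones. Cluster 7 (chr11:55343201-56989843) spans 1647 kb and holds 46 members, of which 40 were never inside a peak; it was covered at 0.036% in KO parental. Clusters 5 and 6 held 2 members each, and none of these was inside a peak in any library. Cluster 11, at the far end of the long arm with 22 members, had 17 that were never inside a peak. Class II members were never inside a peak in 65.5% of cases and class I members in 36.4%; all class I members share cluster 1, so class and position cannot be told apart.

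**Figure D4:**
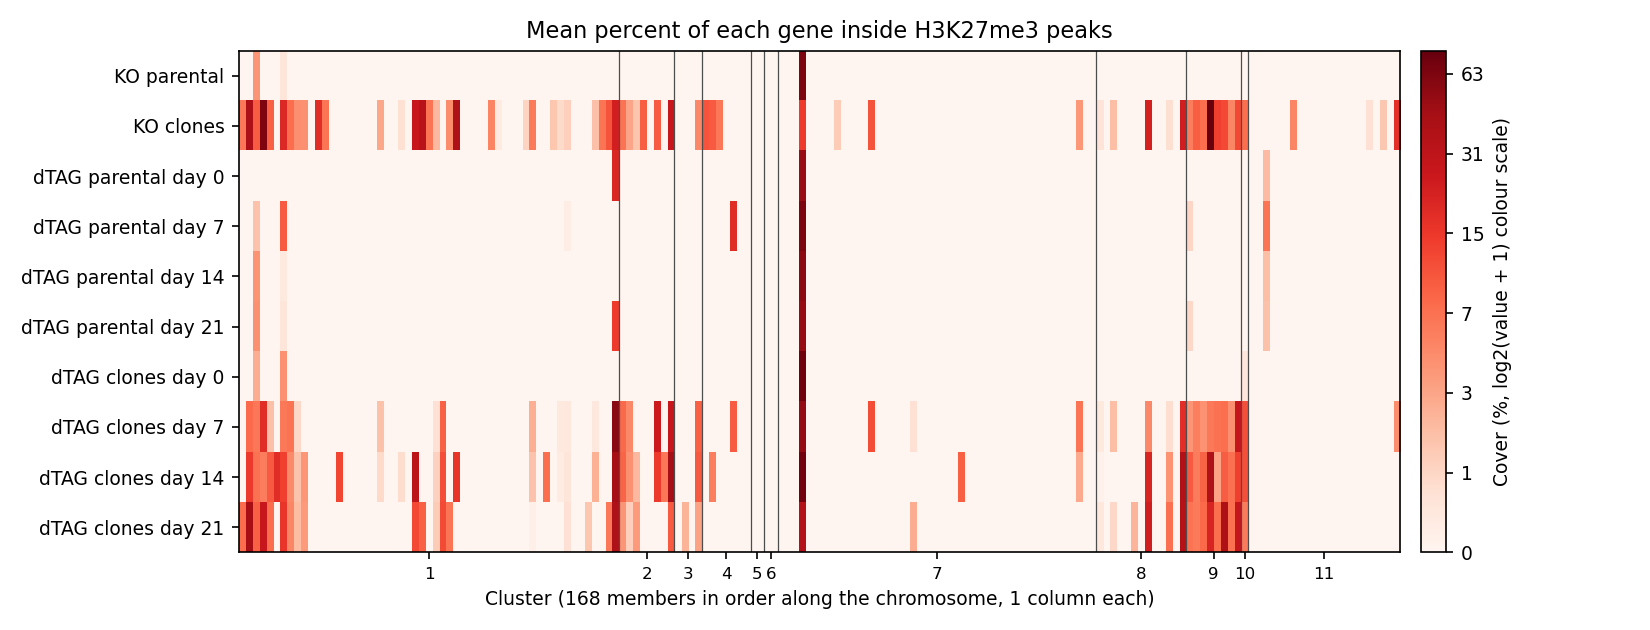
Mean percent of each of the 168 placed receptor genes inside H3K27me3 peaks, 1 column per gene in chromosomal order with lines between the 11 clusters, 1 row per condition (2 or 4 libraries), colour on a log2(value + 1) scale. Cover without NSD2 gathers in clusters 1, 2 and 9 and at the end of cluster 8, and the dark column of cluster 7 is OR4C16.

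**Figure D5:**
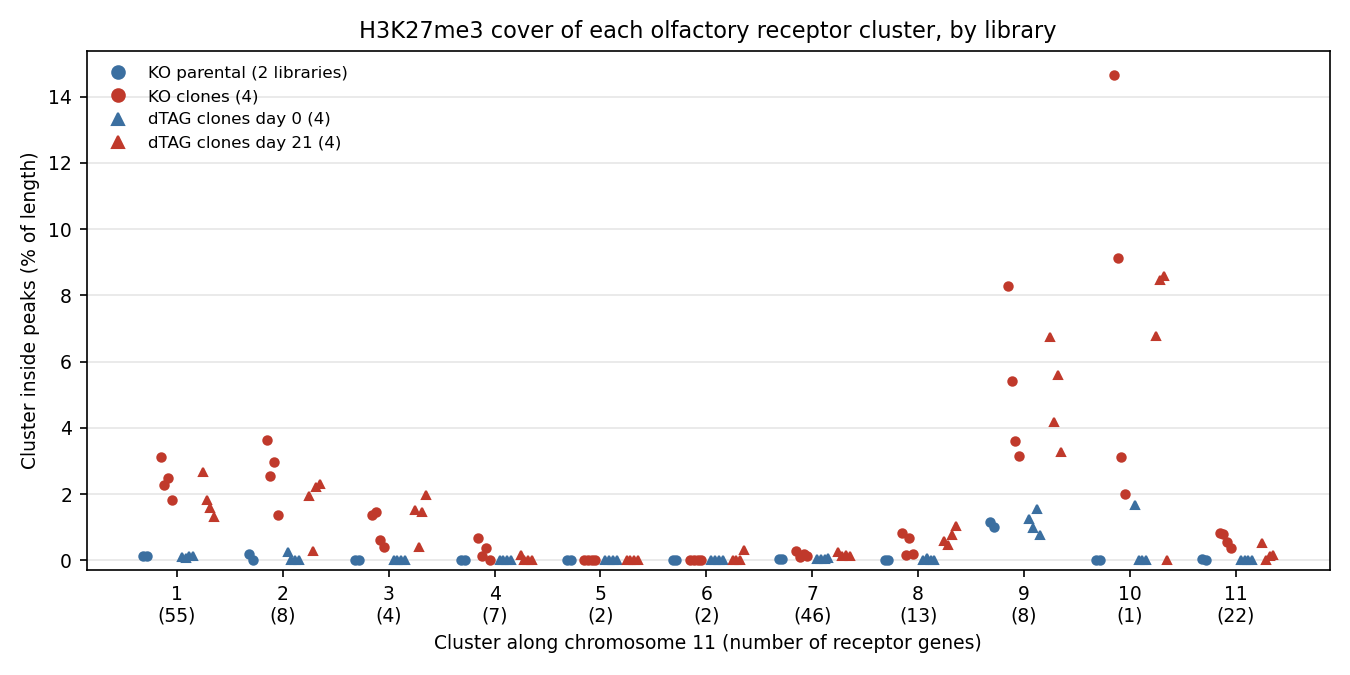
Percent of the length of each cluster inside peaks, 1 point per library, for KO parental and KO clones (circles) and dTAG clones at day 0 and day 21 (triangles), blue with NSD2 and red without. Cluster 9 averages 5.12% in the KO clones and cluster 7, with 46 receptor genes, 0.179%.

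Because receptor genes are short against the space between them, the clusters were also scored in 25-kb bins. Of 245 cluster bins 47 passed the filter (19.2%), against 41.1% of genome bins. In the KO clones 29 cluster bins gained and 0 lost, which is 61.7% of the tested bins, where the background over the genome was 37.3% gained and 0.522% lost. At day 21 also 29 gained and 0 lost (background 51.6% and 0.367%), and 20 bins were on both lists, 69.0% of each. Counted over all bins, tested or not, 11.8% of cluster bins gained in each comparison, against 15.3% of genome bins in the KO clones and 21.2% at day 21. A bin at 0 with NSD2 passed the filter through its cover without it, so the share among tested bins is no measure of the clusters as a whole. Leaving out KO parental replicate 1 or 2 took the knockout count to 10 or 9, and no or 1 bin gained once lists were shortened to equal length. Over the genome the 18575 bins gained in the KO clones became 8947 or 7190. Shortened lists left 862 gained genome bins there and 2261 at day 21, of 25697 tested.

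Of the 29 gained bins, 16 lay in cluster 1 in each comparison, and 7 (knockout) and 8 (day 21) in cluster 9. In each comparison 12 of the gained bins held no receptor gene, so peaks were gained between the receptor genes as well. Day 7 gave 17 gained and 0 lost bins (background 39.5% and 0.159%), and day 14 gave 23 and 0 (background 47.1% and 0.387%). In the dTAG parental line 0 bins gained at day 7, 14 or 21 (background 0% each), and none reached an unadjusted p under 0.05. Over the genome 935 of 49812 tested bins did so at day 21. The day 21 change of the tagged clones exceeded that of the parental line in 4 cluster bins and fell below it in 0 (background 3.39% and 0.0582%).

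The clusters also hold 20 genes that are no receptors, of which 12 were tested. In the KO clones 2 gained and at day 21 4 gained (16.7% and 33.3% of those tested, background 17.7% and 26%), and none lost. In the KO clones TRIM6 gained 6.54 ± 1.48 points (SE, adjusted p = 0.00446) and TRIM34 3.16 ± 0.78 (adjusted p = 0.00816), both of the tripartite-motif family of antiviral factors. At day 21 TRIM34, TRIM21, HBG2 and HBE1 gained. The beta-globin genes lie inside cluster 1. HBE1, the embryonic beta-like globin, was at 0 in the 4 day 0 libraries and, at day 21, at 93.9% and 92.1% in clone 8 but 9.62% and 23.6% in clone 11, a change of 54.8 ± 12.1 points (SE, adjusted p = 0.00265). HBG2, a fetal globin, was inside a peak in the 2 day 21 libraries of clone 8 alone (12.4% and 28.7%) and at 0 in both of clone 11, a change of 10.3 ± 1.98 points (adjusted p = 0.000943). HBB, the adult beta-globin, was at 0 in all 8 libraries of that comparison. Among the 26 members within 20 kb of a gene that is no receptor, 16 (61.5%) were inside a peak in some library without NSD2, against 57 of 142 (40.1%) farther away; that limit was chosen after the values were seen. Across the 168 members the distance to such a gene and the mean cover without NSD2 had Pearson's r of −0.19 and Spearman's rho of −0.31, a description only, since neighbouring genes share peaks.

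Receptor genes on other chromosomes, found by the same symbol rule, held peaks more often in cells with NSD2, with a smaller ratio between the groups. Of these 219 genes, 14.2% ± 1.29 (SD, n = 2) were inside a peak in KO parental and 33.6% ± 8.47 (SD, n = 4) in the KO clones, and 10.3% ± 2.6 at day 0 and 28.1% ± 6.17 at day 21 (SD, n = 4 each). Of the 101 that were tested, 17 gained and 3 lost in the KO clones, and 21 gained and 0 lost at day 21. The gains were 16.8% and 20.8% of those tested, at or below the background of 17.7% and 26%. Over all protein-coding genes, 72.1% were inside a peak in KO parental and 84.2% in the KO clones. Of the chromosome 11 members 1.49% and 20.5% were, so their larger ratio starts from a lower base.

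The partners of the receptors in odorant signalling lie outside the clusters, CNGA4 and OMP on chromosome 11 and the rest elsewhere. Of 15 such genes 12 were tested; 5 gained in the KO clones and 5 at day 21 (41.7% of those tested in each, background 17.7% and 26%), with no loss. GNAL, the G protein subunit that couples to the receptors, gained 4.94 ± 1.31 points in the KO clones (adjusted p = 0.0129) and 8.37 ± 1.07 at day 21 (adjusted p = 4.29e-05). REEP1, of the family that helps receptors reach the cell surface, gained 14.0 ± 2.87 (adjusted p = 0.00217) and 15.8 ± 2.34 points (adjusted p = 0.000129). Of 8 factors that take part in receptor choice 6 were tested; 1 gained in the KO clones and 3 at day 21 (16.7% and 50% of those tested). EBF2 was among both, with 2.83 ± 0.67 (adjusted p = 0.00621) and 2.36 ± 0.55 points (adjusted p = 0.00398). LBR, whose loss is needed for receptor genes to gather in the nucleus, changed by 0.88 ± 1.3 and 0.30 ± 1.06 points and did not pass (adjusted p = 0.77 and 0.896).

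The labelled cell type could be looked at through marker cover only, since H3K27me3 does not measure expression. Plasma cell markers averaged 5.46% cover in KO parental and 7.30% in the KO clones (10 genes, 7 tested, 0 gained). Olfactory sensory neuron markers averaged 9.01% and 11.4% (7 genes, 5 tested, 1 gained). The background was 17.7% gained, and all genes averaged 7.54% and 9.50%. OR2D3 and OR10A2 were the most and least covered of cluster 2: OR2D3 gained 26.1 ± 7.94 points at day 7 (adjusted p = 0.0267), and OR10A2 was never inside a peak. OR10A3, the most covered of cluster 3, changed by 4.79 ± 4.33 points in the KO clones and did not pass (adjusted p = 0.563). Of the members with most cover in cells with NSD2, OR51D1 had 34.6% and 0.609% in clone 3 and 16.5% and 25.7% in clone 12, against 0.985% and 0 in KO parental (adjusted p = 0.0877). OR4C3 was inside a peak in 2 libraries, 1 of each kind.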

How the data were processed

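Each of the 30 H3K27me3 libraries (50000 nuclei, 13 PCR cycles) has a broad peak list, which the authors deposited with coordinates in hg38. Per the submitters' processing notes the tools include fastp 0.24.0, Bowtie2, SAMtools, Picard and MACS3 3.0.2; how reads were filtered after mapping, with which options peaks were called and whether IgG was the control is not given in the sources used here. For each peak the authors' lists give a fold enrichment over background, a −log10 p, a −log10 q and a deposited score, which is 10 times the −log10 q. The weakest peak of a list had a −log10 q between 1.00007 and 1.01163. The 10 other libraries (2 IgG, 4 H3K27ac, 4 H3K4me3) were not analysed here.

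Peaks of a library were merged, and the percent of each gene (RefSeq, GRCh38.p14) and of each 25-kb bin inside them was computed (Python 3.11.15). Covered percent was fitted with limma 3.58.1 (R 4.3.3), with a mean for each of the 15 groups, all 30 libraries, 15 residual degrees of freedom and a mean-variance trend. Benjamini-Hochberg adjustment ran over the 14197 genes or 49812 bins with a mean cover between 1% and 99%. No minimum gene length was set, since 74 members are under 1 kb. The fit was tested on simulated data. Depth is not recorded. The background pileup was estimated from the shortest 2% of peaks, assuming a Poisson test against a constant background. In each list 62 to 289 of these peaks fitted that model, a minority of those tried, and 26 to 142 shared the value taken. Lists held 34740 to 205920 peaks over 36.1 to 167.8 Mb, and longer lists touch more genes.

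The labels call replicates biological for the knockout and dTAG clones. For the parental lines nothing says that the 2 libraries came from separate cultures, so p-values measure the spread between these libraries, which may be technical. The members, the lists and the rules were chosen with earlier results of these data known. Named are the 10 largest called gains and up to 5 largest called losses in the knockout and day 21 comparisons, the 5 members most covered with NSD2, the most and least covered member of each cluster where that is unique and covered at all, members called in opposite directions (none) and members called in dTAG parental (none). Alternatives tried are in the closing section.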

Additional observations from a re-analysis of the deposited data

Results flagged for a closer look

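In 32 groups of 4 libraries checked, Dixon's test flagged a library in 5. Its chance rate of about 1 in 20 holds for continuous, normally distributed values. Small counts and cover with many zeros are not such values, so the 5 flags cannot be weighed against that rate. Among the dTAG clones at day 0, clone 8 replicate 2 had 2 members with a peak and the others had 3 each, and with equal counts in the others any difference is flagged. At day 7, clone 8 replicate 1 had 0.451% of the clusters covered, against 0.842% to 0.860% in the others. At day 21, OR51E1 was at 6.86% in clone 11 replicate 1, against 4.30% to 4.68%, and OR51M1 was at 0 in clone 8 replicate 2, against 8.63% to 9.53%. At day 0, OR52K1 was at 1.03% in clone 11 replicate 2, against 2.96% to 3.24%.

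The day 21 change differed between the dTAG clones and the untagged parental line, by limma's test of the difference itself, in 4 cluster bins of 25 kb on chromosome 11. In cluster 1 the bin starting at 4375001 differed by 10.7 percentage points (adjusted p = 0.0297), the bin starting at 5250001, which holds HBG2 and HBE1, by 9.07 (adjusted p = 0.042), and the bin starting at 5375001, which holds OR51M1, by 6.73 (adjusted p = 0.044). In cluster 3 the bin starting at 7875001, between receptor genes, differed by 4.73 (adjusted p = 0.044).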

How the results depend on the processing

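The order knockout clones above KO parental, and treated dTAG clones above untreated ones, held for members with a peak when peaks were joined over 3 kb, where the ranges over libraries were the same. It was narrower in stricter lists. With lists shortened to equal length the mean was 6 in the KO clones and 5.25, 7.25 and 5 at days 7, 14 and 21. At −log10 q of at least 5 it was 1.5 in KO parental, 3.25 in the KO clones, 1.25 at day 0 and 3.5, 3.75 and 2.75 at days 7, 14 and 21; at a fold of at least 4 it was 3.5, 2, 3.75, 4 and 2.75 in the KO clones and at days 0, 7, 14 and 21. Counting members covered by at least 50% gave 1 in KO parental, 3.5 in the KO clones, 1, 1.75, 3.25 and 2.75 in the dTAG clones, and 0.5, 1, 0.5 and 0.5 in dTAG parental.

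No member gained in the KO clones or at day 7, 14 or 21 in lists that were shortened or cut at −log10 q of at least 5 or a fold of at least 4, so 0 in each, and no member lost in the KO clones or at day 21 at those 2 limits. Of the cluster bins 0 gained in the KO clones under all 3 and, at day 21, 1, 0 and 0. These lists hold fewer peaks and fewer members pass the filter. Over all genes, shortened lists and the q and fold limits gave 247, 0 and 2 gains in the KO clones. At day 21 they gave 528, 27 and 22. Over genome bins the gains were 862, 3 and 17 in the KO clones and 2261, 54 and 85 at day 21. A filter of 5% to 95% left 5, 3, 4 and 3 gains in the KO clones and at days 21, 14 and 7. Over all genes it left 844, 1939, 1483 and 1625 of 7699 tested. It left 5 gained bins in each of the KO and day 21 comparisons, against 7458 and 12863 of 24727 genome bins. Over the few members it kept, the median change was 22.7, 16.2, 14.6 and 6.75 points. Genes of at least 1 kb gave 7 gains in the KO clones and 3 at day 7, with 0 losses in the KO clones and at day 21. Over all genes of that length the gains were 2508 and 2954 of 13940, and the losses 104 and 69. Adding 10 kb on either side gave 19, 22, 22 and 14 gains in the KO clones and at days 21, 14 and 7. Over all genes it gave 4106, 7589, 6540 and 6264 of 16310. In the KO clones it gave 0 losses, against 80 over all genes, and a median change of 0.19 points. Fitting the groups compared alone gave 4 gains, 0 losses and 11 gained bins in the KO clones and 0 losses at day 21. Over all genes and bins it gave 793 gains, 46 losses and 10744 gained bins, and 49 losses at day 21. The pileup covariate gave 3, 6 and 2 gains at days 21, 14 and 7 (over all genes 2235, 2268 and 1657). Joined peaks gave 5 and 6 at days 21 and 14 (over all genes 2723 and 2039 of 14480). The arcsine scale gave 13 and 10 at days 21 and 7 (over all genes 4078 and 3715). It also gave 1 lost KO bin (over the genome 249). Scaling by called length gave 16 gains and 1 loss at day 14, where all genes gave 2194 and 4499 of 14128. At day 7 it gave 8 and 1, where all genes gave 1993 and 4090. It gave 1 lost bin in the KO clones and 2 at day 21, against 6058 and 8601 of 47279 genome bins. Where no construction is named the cause was not tested.

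Leaving out each library in turn moved the gains to 3 to 15 in the KO clones, 4 to 14 at day 21, 7 to 13 at day 14 and 2 to 7 at day 7, the losses to 0 to 1 in the KO clones and at day 21, and the gained bins to 9 to 30 and 22 to 34. Over all genes the gains ran from 1062 to 2706 in the KO clones and from 2533 to 3960 at day 21. They ran from 1951 to 3507 at day 14 and from 1671 to 2876 at day 7. The direction reversed for OR52K1 in the KO clones with shortened lists (−0.0369 points) and for OR52N2 at day 21 with the pileup covariate (−0.306 points), and neither had passed in that comparison. Same-numbered libraries of different groups deviated together by a correlation over 0.1 in 73 of 105 pairs of groups, in 3 of 3 pairs of the knockout comparison and in 6 of 6 of day 21, but in 2 of 6 of day 7; with 2 numbers a group and no label that ties them, they were not taken as pairs. With the replicate number as a block 13 members gained in the KO clones and 0 in dTAG parental. At days 21, 14 and 7 the gains were 12, 12 and 6. The KO and day 21 comparisons had 1 loss each, and 30 and 31 gained bins. Over all genes the block gave 3041 gains in the KO clones and 3 in dTAG parental. At days 21, 14 and 7 it gave 4447, 3828 and 3837. Losses over all genes were 167 in the KO clones and 115 at day 21, with 21074 and 28035 gained genome bins. Of the named results 44 kept their side of the threshold, none was lost and 4 came to pass. These were OR2D3 (adjusted p = 0.0405) and OR5A1 (0.0493) in the KO clones and OR52W1 (0.0316) and OR5A2 (0.0493) at day 21. Depth is known only as an estimate, and its part in which members had a peak was not tested beyond the pileup covariate; a gene without a peak may still carry the mark.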
